A study of Mus musculus with 2 samples.

Results

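The microRNAs of the Clcn5 intron cluster are a group of hairpins carried within introns of Clcn5, the X-linked gene for a chloride and proton exchanger of endosomes. The named genes were Mir532, Mir188, Mir362, Mir501, Mir500 and Mir660, chosen by name and by their place in Clcn5 introns. Of these 6 genes, 5 were found among the 1973 miRNA genes of the count tables, and Mir660 was not analysed here. Of the 1894 listed miRNA genes that the annotation placed, no other lies within Clcn5, and 79 listed identifiers had no position. Short RNA (under 30 bases by the labels) was sequenced from the livers of healthy B6NCrl mouse embryos, males and females pooled, at day 12.5. Replicate 1 was a pool from 120 embryos and replicate 2 a pool from 88. The labels name a single group with no treatment, mutation or second tissue, so the values below are levels in embryonic liver and differences between 2 libraries of that group. The labels call the libraries biological replicates but a single donor identifier stands for both, so that part of the spread between them may be technical.

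An miRNA gene is transcribed as part of a longer RNA, from which a hairpin is cut out and then trimmed to a mature miRNA of either arm (5p or 3p). A mature miRNA finds its target mRNAs mainly by its seed, bases 2 to 8 from its 5′ end, so miRNAs with the same seed can share targets. Hairpins of an intron cluster can come from a single transcript, and their mature levels then depend also on how each hairpin is cut and how stable each product is. In liver, miR-500 has been described as abundant before birth and again in liver cancer. In human liver cancer cells miR-362-5p is known to repress the deubiquitinase CYLD. In mouse bone marrow stromal cells miR-188 is known to sway the choice between bone and fat cells.

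The mature sequences are shown because they sort the members into related groups and show how far apart reads of each gene lie. RefSeq (build GRCm38.p6) held hairpins for all 5 measured members and 9 of their mature sequences. It held no 5p sequence of Mir532, so the seeds and matches given here leave out that arm. They are written 5′ to 3′ with the seed in capitals, in order of transcription.
mmu-miR-532-3p: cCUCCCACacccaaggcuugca
mmu-miR-188-5p: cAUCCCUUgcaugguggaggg
mmu-miR-188-3p: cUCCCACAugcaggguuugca
mmu-miR-362-5p: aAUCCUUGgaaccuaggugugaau
mmu-miR-362-3p: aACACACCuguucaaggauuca
mmu-miR-501-5p: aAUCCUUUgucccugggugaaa
mmu-miR-501-3p: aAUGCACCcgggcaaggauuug
mmu-miR-500-5p: aAUCCUUGcuaucugggugcuuagu
mmu-miR-500-3p: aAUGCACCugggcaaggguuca

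The 9 sequences held 7 different seeds. miR-501-3p and miR-500-3p shared the seed AUGCACC and matched at 18 of 22 bases. Counted from the 5′ end, with the base of miR-501-3p written before the position and that of miR-500-3p after it, they differed by C9U, A18G, U21C and G22A. miR-362-5p and miR-500-5p shared the seed AUCCUUG and matched at 16 of 24 aligned bases. The seed of miR-501-5p differed from this seed at 1 base, and it also differed at 1 base from the seed of miR-188-5p, of an upstream member. The downstream members Mir362, Mir501 and Mir500 were also alike in their 3p sequences, with 17 of 22 bases matched between miR-362-3p and miR-500-3p and 15 of 22 between miR-362-3p and miR-501-3p. The upstream members formed a looser pair, since miR-188-3p and miR-532-3p share a run of 8 bases that starts 1 base later in miR-532-3p.

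Exact runs shared between hairpins were shorter than any of these mature sequences. The longest exact run that any member shared with another miRNA gene was 14 bases, between Mir500 and Mir501, and it was 12, 11 and 11 bases for Mir532, Mir188 and Mir362. Their hairpins are shown with the shared run in capitals, because these are the members most easily confused.
Mir500: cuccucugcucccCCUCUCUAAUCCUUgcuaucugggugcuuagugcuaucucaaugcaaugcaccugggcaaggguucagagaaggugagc
Mir501: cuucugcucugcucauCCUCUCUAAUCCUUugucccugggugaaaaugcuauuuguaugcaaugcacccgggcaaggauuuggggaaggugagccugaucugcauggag
The shared run covers the start of the 5p arm of both genes. The comparison covered miRNA genes only, and how many mismatches the alignment allowed is not given in the sources. The counts are per gene, so they do not say which arm was present.

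All 5 members lie on the minus strand of chromosome X, as Clcn5 does, within 10.8 kb (mm10 coordinates, GENCODE M21). In the direction of transcription Mir532 (ENSMUSG00000070139.1, 7248402 to 7248497) comes first. Mir188 (ENSMUSG00000065398.1, 7247989 to 7248056) follows after a gap of 345 bases. Mir362 (ENSMUSG00000070100.1, 7241982 to 7242046) comes 5942 bases further on, and Mir501 (ENSMUSG00000076251.1, 7241243 to 7241351) 630 bases after it. Mir500 (ENSMUSG00000070108.2, 7237683 to 7237774) is the last, after a gap of 3468 bases. The 5 measured members thus form an upstream pair, a downstream pair and a lone last hairpin, with Mir660 not placed.

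Every member lies in the same intron of 103648 bases, which is intron 3 of the transcripts Clcn5-202 and Clcn5-204 and intron 2 of Clcn5-203. The first hairpin is 68161 bases past the preceding exon, and the last is 24672 bases before the next one. The shorter transcripts Clcn5-201 and Clcn5-205 begin downstream of the cluster and do not contain it. The RNA of Clcn5 itself was not measured here.

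The tables gave raw read counts per gene, and sense counts were used. The libraries held 11057424 reads in replicate 1 and 11013976 in replicate 2, of which 3447858 and 3534816 were sense counts on miRNA genes. Levels are counts per 1000000 such sense counts (CPM), and 1 count was worth 0.290 CPM in replicate 1 and 0.283 CPM in replicate 2. Reads carry no molecular identifiers, so intervals and limits cover counting error only. Of the marker lists for cell types, the hepatocyte miRNA Mir122 (60913 CPM in replicate 1 and 47128 in replicate 2) and the endothelial Mir126a (68816 and 68165) were abundant. The 3 erythroid genes summed to 16926 and 37430 CPM. Mesenchyme markers summed to 23576 and 25485 CPM, with 4 of 5 at 10 CPM or more in both libraries, and the 2 leukocyte genes measured to 7168 and 5813 CPM. Of the neural markers 0 of 5 reached 10 CPM and 4 had no count, and of the muscle markers 1 of 4 did and 3 had no count. The genes with no count belong to families with several copies of the same mature miRNA, whose reads can align to several places and were then not counted, so a count of 0 does not bound the level of the miRNA.

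All 5 measured members were present at 10 CPM or more in both libraries, a level that 15.3% of all listed miRNA genes reached. Together they held 12490 sense counts in replicate 1 and 14180 in replicate 2, or 3817 ± 275 CPM (SD, n = 2). This was 0.382% ± 0.0275 of all miRNA gene counts. Among the miRNA genes of chromosome X it was 5.02% of the counts in replicate 1 and 5.82% in replicate 2. Reads that aligned to several places, 28.8% of replicate 1 and 31.1% of replicate 2, are in none of these counts. Genes with copies elsewhere may thus be counted too low, so these shares may be too high and the 15.3% too low. On the opposite strand each member had 0 counts in either library, so 3 counts, or 0.870 CPM in replicate 1 and 0.849 CPM in replicate 2, is the upper limit there. In bulk liver, few cells with much of an miRNA and many cells with little cannot be told apart.

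Mir532, the first hairpin, had the highest level of the cluster. It had 6709 counts in replicate 1 and 7491 in replicate 2, which are 1946 CPM (95% interval 1900 to 1993, exact Clopper-Pearson as for all CPM intervals here) and 2119 CPM (2072 to 2168). Its mean was 2033 ± 123 CPM (SD, n = 2), and it ranked 80 and 74 among all listed genes. On chromosome X it ranked 7 and 6 of 120 listed genes.

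Mir188, just downstream, came next. It had 3095 counts in replicate 1 and 4093 in replicate 2, which are 898 CPM (866 to 930) and 1158 CPM (1123 to 1194). The mean was 1028 ± 184 CPM (SD, n = 2), and the gap between the libraries was wider than for Mir532.

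Mir362, which opens the downstream part, had the lowest level. It had 237 counts in replicate 1 and 358 in replicate 2, which are 68.7 CPM (60.3 to 78.1) and 101 CPM (91.1 to 112). With a mean of 85.0 ± 23.0 CPM (SD, n = 2) it also varied most, its SD being 27.1% of its mean against 6.03% for Mir532.

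Mir501, only 630 bases further on, stood well above Mir362. It had 1932 counts in replicate 1 and 1642 in replicate 2, which are 560 CPM (536 to 586) and 465 CPM (442 to 488). It was the only member with the higher level in replicate 1, and its mean was 512 ± 67.8 CPM (SD, n = 2).

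Mir500, the last hairpin, had 517 counts in replicate 1 and 596 in replicate 2. These are 149.9 CPM (137 to 163) and 169 CPM (155 to 183), with overlapping intervals, and a mean of 159 ± 13.2 CPM (SD, n = 2). It is the related gene of Mir501 by its 3p sequence and lay below it in both libraries.

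**Figure D1:**
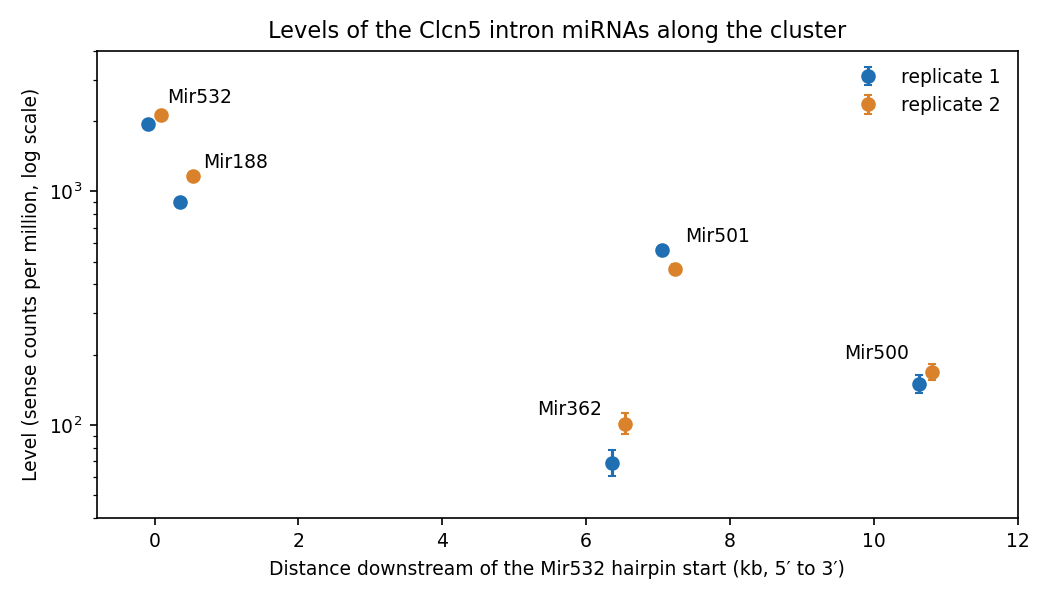
Level of each member (CPM of sense counts, log axis) against its distance in kb downstream of the Mir532 hairpin, with replicate 1 in blue and replicate 2 in orange, set slightly apart; bars are exact 95% intervals for counting error. Mir532 and Mir188 lie highest, and in the downstream part Mir501 (560 and 465 CPM) stands between the low Mir362 (68.7 and 101 CPM) and Mir500 (149.9 and 169 CPM).

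The order by level was Mir532, Mir188, Mir501, Mir500 and Mir362 in both libraries, which is not the order of transcription. Each of the 4 neighbouring pairs in this order differed with the same sign in both libraries and by more than the SD of either gene. The smallest difference, Mir500 minus Mir362, was 74.3 ± 9.81 CPM (SD, n = 2), and the largest, Mir532 minus Mir188, was 1005 ± 61.4 CPM. How well each miRNA was captured in the library was not measured, so ratios of counts between genes need not be ratios of true levels. The ratio of Mir532 to Mir362, the highest over the lowest, was 28.3 in replicate 1 and 20.9 in replicate 2.

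**Figure D2:**
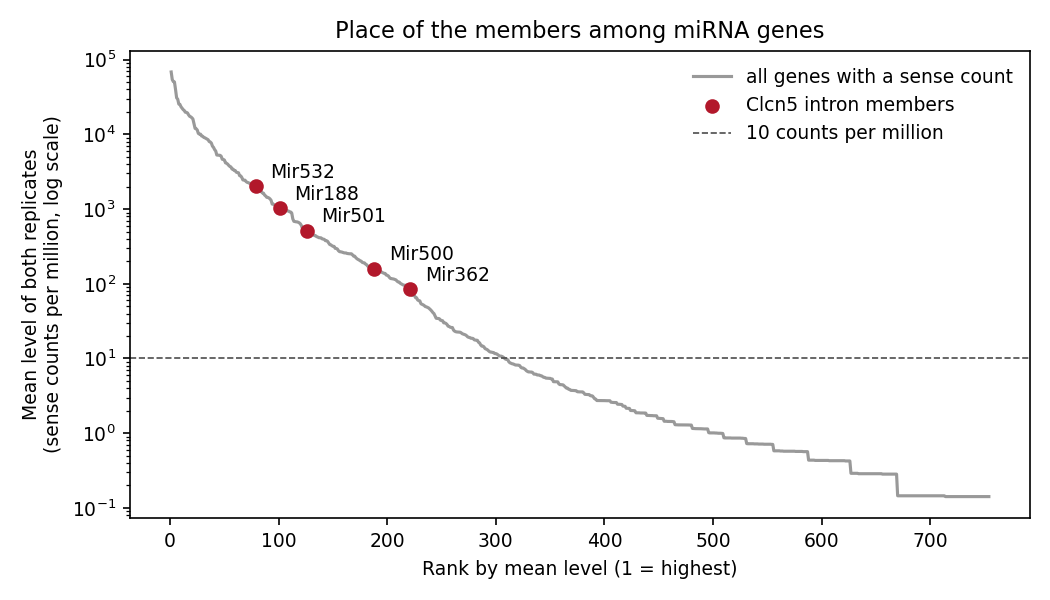
Mean level over both replicates (CPM of sense counts, log axis) of every miRNA gene with a sense count, by rank; red points are the 5 members and the dashed line is 10 CPM. The members are spread from rank 79 (Mir532) through 101 (Mir188), 126 (Mir501) and 188 (Mir500) to 221 (Mir362), all above the line.

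The pairs of close hairpins had different ratios of counts. In the upstream pair Mir532 exceeded Mir188 2.17-fold in replicate 1 (95% exact interval 2.08 to 2.26) and 1.83-fold in replicate 2 (1.76 to 1.90). In the downstream pair Mir501 exceeded Mir362 8.15-fold in replicate 1 (7.12 to 9.37) and 4.59-fold in replicate 2 (4.09 to 5.16). Mir501 exceeded Mir500, with which it shares the 3p seed, 3.74-fold in replicate 1 (3.39 to 4.13) and 2.76-fold in replicate 2 (2.51 to 3.03). Such ratios within a library do not depend on how the libraries are scaled.

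Hairpin length, composition and predicted fold also differed between the members. The annotated hairpins were 65 (Mir362) to 109 (Mir501) bases long, with a GC content between 46.2% (Mir362) and 55.9% (Mir188). Folded in silico with RNAfold, their minimum free energies ran from -28.5 kcal/mol for Mir362 and -28.8 kcal/mol for Mir188 to -41.9 kcal/mol for Mir500 and -46.9 kcal/mol for Mir501, with -33.2 kcal/mol for Mir532. Per base the energies were -0.346 kcal/mol for Mir532, -0.424 for Mir188, -0.430 for Mir501, -0.438 for Mir362 and -0.455 for Mir500. The shortest hairpin was that of the gene with the lowest level, while Mir188, nearly as short, was the second most abundant. A link of hairpin length or fold to level was not tested.

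Each member was also set beside the listed miRNA gene outside the cluster whose levels were nearest, by Euclidean distance of log2(CPM + 1) over the 2 libraries. Mir16-2 was nearest to Mir188, with 899 CPM in replicate 1 and 1143 in replicate 2 (distance 0.0189), a level that is uncertain because Mir16-1 encodes the same mature miRNA. Mir679 was nearest to Mir501, at 553 and 476 CPM (distance 0.0386), and Mir666 to Mir500, at 150.2 and 168 CPM (distance 0.00774). Mir300 was nearest to Mir532, at 2036 and 2026 CPM (distance 0.0923), and Mir345 to Mir362, at 78.3 and 99.9 CPM (distance 0.187). With 2 libraries this likeness covers 2 values per gene.

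A seed of the cluster also occurs elsewhere in the genome. In the RefSeq table of 1738 mature sequences, miR-362-3p shares its seed ACACACC with a single other sequence, miR-329-3p from chromosome 12.
mmu-miR-329-3p: aACACACCcagcuaaccuuuuu
Beyond the seed the 2 sequences diverge, with 12 of 22 bases matched. Mir329 (chromosome 12, 109713481 to 109713577) had 1500 counts in replicate 1 and 1787 in replicate 2, or 470 ± 49.8 CPM (SD, n = 2). Mir329 stood 6.33-fold above Mir362 in replicate 1 and 4.99-fold in replicate 2, so the gene elsewhere had the higher level in both libraries. Counts are per gene and the seed is that of the 3p arms, so the levels of the mature miRNAs with this seed were not compared. miR-7061-3p shares the seed AUCCCUU with miR-188-5p, and its gene was not analysed here. For the other 7 mature sequences, no sequence from outside the cluster had the same seed in this table.

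Mir532, Mir188, Mir362 and Mir500 were lower in replicate 1 than in replicate 2, and Mir501 was higher. Ratios are given as log2 of replicate 1 over replicate 2 on library sizes scaled by TMM, with 0.5 counts added, so negative values mean lower in replicate 1. For the 464 genes with at least 10 counts over both libraries, each ratio was tested by a two-sided exact binomial test with Benjamini-Hochberg adjustment over all 464 genes at 0.05. The test compares these 2 libraries, allows for counting error only and called 40.3% of all genes. All 5 members were called, against 68.5% of the 143 genes with total counts in the members' range, a set that includes the members. Of these members 4 were lower in replicate 1, where 22.0% of all genes were called, and 1 was higher, where 18.3% were. The median absolute log2 ratio was 0.22 over the members, 0.20 over the genes of that range and 0.26 over all genes tested.

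Mir362 had the largest difference, a log2 ratio of -0.61 (95% interval -0.86 to -0.37, adjusted p = 1.53e-06, exact binomial test), or 0.654-fold in replicate 1 relative to replicate 2. Of the 143 genes in the members' range, 10 had a ratio at least this large in either direction, Mir362 itself among them. Mir188 followed with -0.42 (-0.49 to -0.35, adjusted p = 5.88e-34, exact binomial test). Mir532 had -0.18 (-0.23 to -0.13) and Mir500 -0.22 (-0.40 to -0.05), with adjusted p = 1.29e-12 and 0.0269 in the exact binomial test. Mir501 alone was higher in replicate 1, at 0.22 on the log2 scale (0.12 to 0.31, adjusted p = 3.27e-05, exact binomial test).

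None of these calls held in the 2 tests that allow for more spread between libraries than counting gives. With an assumed coefficient of variation of 0.1 in the negative binomial exact test of edgeR, 0 of the 5 members passed (2 at an unadjusted p under 0.05, Mir188 and Mir362), with 2.59% of all genes called. With the coefficient of 0.162 estimated by edgeR from the same libraries, 0 of 5 passed (0 at an unadjusted p under 0.05), with 1.08% of all genes called. That estimate takes its spread from the same differences that are tested, so few calls are largely built into it. The call of Mir500 was also lost in the exact binomial test when libraries were scaled to total sense counts (adjusted p = 0.116) or by DESeq2's size factors (adjusted p = 0.0510). The erythroid markers, at 16926 CPM in replicate 1 against 37430 CPM in replicate 2, also differed between the libraries. Mir451a carried this sum (log2 ratio -1.44), Mir144 had -0.35, and Mir486 was higher in replicate 1 with 0.38. Their part in the ratios of the members was not tested.

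**Figure D3:**
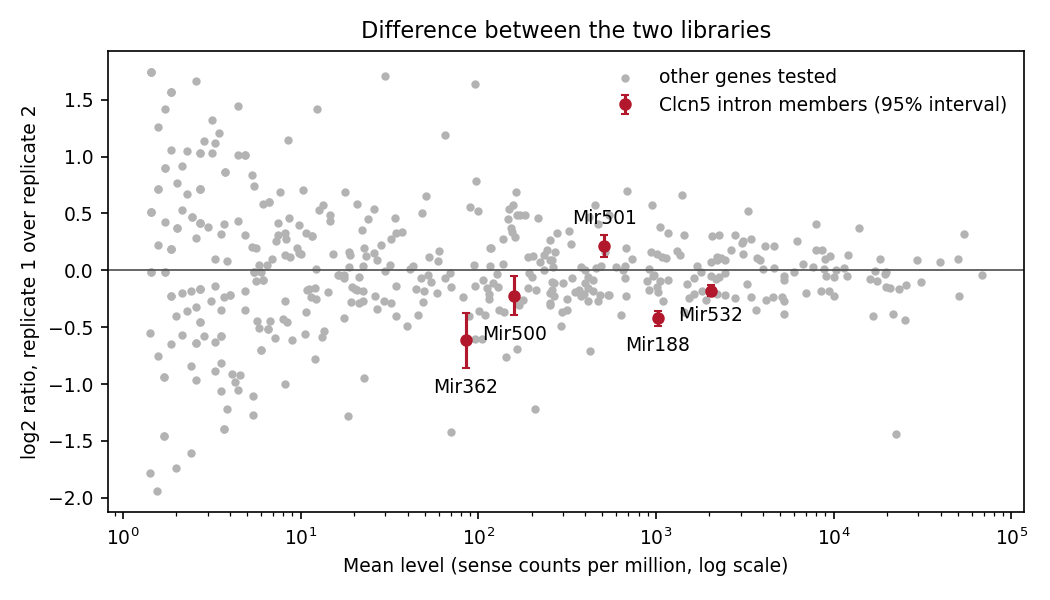
log2 ratio of replicate 1 over replicate 2 against mean level (CPM of sense counts, log axis) for the 464 genes tested; grey points are other genes and red points are the members with their 95% counting intervals. Mir501 (0.22) lies above 0 and the other members below it, from -0.18 for Mir532 to -0.61 for Mir362, within the cloud of other genes.

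Within the cluster, Mir501 held a larger share and Mir188 and Mir362 smaller shares in replicate 1 than in replicate 2, while the intervals of Mir532 and Mir500 overlapped. Mir501 made up 15.5% of the cluster's counts in replicate 1 (95% Wilson interval 14.8 to 16.1) and 11.6% in replicate 2 (11.1 to 12.1). Mir188 made up 24.8% in replicate 1 (24.0 to 25.5) and 28.9% in replicate 2 (28.1 to 29.6). Mir362 had 1.90% (1.67 to 2.15) and 2.52% (2.28 to 2.80), with no overlap of its intervals. Mir532 had 53.7% (52.8 to 54.6) and 52.8% (52.0 to 53.6), and Mir500 had 4.14% (3.80 to 4.50) and 4.20% (3.89 to 4.55). Shares of the same total are tied, so a larger share of a member lowers those of others. The intervals cover counting error only. By the exact binomial test, which allows for that error only, 68.5% of the 143 genes in the members' range differed in level between the libraries. That test compares levels and not shares within a cluster, and no background was computed for such shares.

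**Figure D4:**
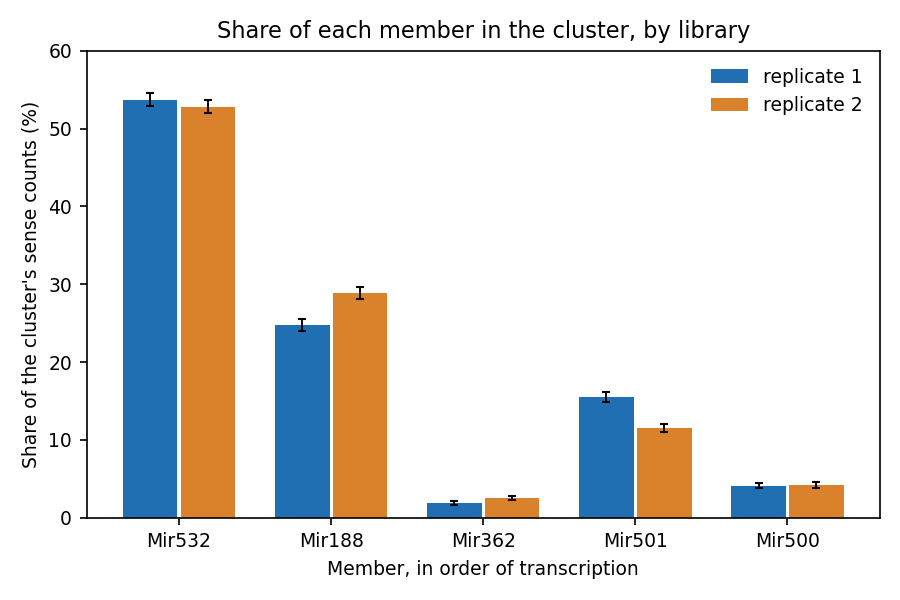
Share of the cluster's sense counts held by each member, in order of transcription, with replicate 1 in blue left of replicate 2 in orange; bars start at 0 and whiskers are 95% Wilson intervals. Mir532 holds 53.7% and 52.8%, Mir501 holds 15.5% in replicate 1 and 11.6% in replicate 2, and Mir188 holds 24.8% in replicate 1 and 28.9% in replicate 2.

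Mir532 over Mir500, hairpins at opposite ends of the cluster, had overlapping intervals, at 13.0 in replicate 1 (11.9 to 14.2) and 12.6 in replicate 2 (11.6 to 13.7). Over replicates the ratio was 12.8 ± 0.288 (SD, n = 2). This was 1 of 4 pairs with overlapping intervals among the 10 pairs of members. In the other 6 pairs the counting intervals did not overlap, which were 4 of 4 pairs with Mir501 and 2 of 6 without it. The 4 pairs with Mir501 all use its count. How often such intervals overlap for pairs of other genes was not computed, so these numbers do not set the members apart.

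Unequal counts were not found in the Clcn5 intron alone. Its ratio of highest to lowest member, 24.6 ± 5.22 (SD, n = 2), compares with 15.2 ± 0.992 in the 3 genes of miR-106b-25 within Mcm7. On chromosome X it was 36.6 ± 8.31 in the 6 genes of miR-106a-363, whose lowest gene Mir19b-2 is uncertain because it has a near-identical copy elsewhere, and 2704 ± 179.6 in the 7 genes of the Mir322 cluster, whose lowest gene Mir450-2 is uncertain because Mir450-1 encodes the same 5p mature miRNA. By summed level the Clcn5 members, at 3817 ± 275 CPM, lay above miR-106a-363 (876 ± 5.84 CPM) and below miR-106b-25 (27898 ± 3788 CPM) and the Mir322 cluster (37952 ± 611 CPM). Reads that aligned to several places are not in these sums. The sums of clusters with copied genes, such as miR-106a-363, may therefore be too low, and the order of the sums is uncertain there. Of the 115 other listed genes of chromosome X, 28 reached 10 CPM in both libraries. These lists differ in the number of genes, and the differences in ratio between clusters were not tested.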

How the data were processed

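The authors deposited 1 table of raw read counts per library, for both strands together, the sense strand and the opposite strand. Per the file lists deposited with each library, the assembly was mm10 and the annotation GENCODE M4. No source used here names the aligner or counter. Lines of reads belonging to no gene were left out of library sizes. Unmapped reads were 29.4% of replicate 1 and 25.8% of replicate 2, multi-mapped reads 28.8% and 31.1%, reads on no listed gene 10.6% and 11.0%, and ambiguous reads at most 1. Identifiers were matched without version to GENCODE M21, on the same assembly, and 1894 of 1973 were found.

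Members and lists were chosen with earlier results of these data known. Named genes were the members, genes elsewhere with a shared seed, the gene nearest in level to each member, and genes of comparison lists; Mir450-1 and Mir450-2 were matched through RefSeq synonyms, and Mir191, Mir9-1, Mir142 and Mir1a-2 were not analysed here. Tests used R 4.3.3, edgeR 4.0.16 and DESeq2 1.42.0, intervals scipy 1.17.1, and folding RNAfold 2.7.2. The exact binomial test was tested on simulated data with counting noise only. Alternatives were other scalings, count and detection minima, both strands and other tests.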

Additional observations from a re-analysis of the deposited data

How the results depend on the processing

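At a threshold of 100 CPM, 4 of the 5 measured members were detected. All 5 were detected at 1 CPM and in either library alone, which follows from their 10 CPM or more in both libraries and tests nothing. Their order by level in each library alone restates the order given above, and counting both strands could not change it. Per 1000000 reads of the whole library, the summed level was 1209, with 643 for Mir532, 326 for Mir188, 27.0 for Mir362, 162 for Mir501 and 50.4 for Mir500. With the counts of both strands, whose total is larger, the sum was 3452 CPM, with 1838 CPM for Mir532 and 144 CPM for Mir500; the members had no opposite-strand counts. With TMM or DESeq2's size factors the levels moved by less than 1 SD. The factors of replicates 1 and 2 offset each other (1.019 and 0.981 for TMM, 1.013 and 0.988 for DESeq2), so the means could hardly move. With 2 replicates, leaving out either moves a mean by a fixed part of its SD and tests nothing. By the negative binomial exact test of edgeR, 12 genes of 464 (47 at an unadjusted p under 0.05) passed with a coefficient of variation of 0.1 and 5 (19) with the estimate of 0.162, against 187 in the exact binomial test, and 0 of 5 members passed either. Among the 30 combinations of member and alternative with the exact binomial test, 2 calls were lost, both of Mir500. The alternative with 1 count added changes the ratio but not the test, so it could lose no call. The split over all genes was 85 higher and 102 lower in replicate 1 with TMM, 101 and 77 with total counts, and 88 and 87 with DESeq2's size factors. Leaving out a replicate gives no test of a difference between libraries. No paired analysis was possible because there is a single group. Depth limits Mir362 most, where counting error alone is 6.50% of its count in replicate 1.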
